A study of Bos taurus with 18 samples.

Results

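Metallothioneins and zinc transporters were described across liver biopsies of 18 Holstein cows. The genes were chosen by name: a probe set counted as a member when the platform annotation gave it exactly 1 of 8 listed symbols, and where a gene had several probe sets the brightest by mean over all arrays was taken. Of the 8 listed genes, 7 were found among 24333 probe sets (MT1A, MT2A, SLC39A14, SLC39A8, SLC39A4, SLC30A1 and SLC30A10), and all 7 passed the filter on dim probe sets. No probe set carried the symbol MT1E, so that member is not analysed here under its own name. In the RefSeq gene table (assembly ARS-UCD2.0), MT1E is a synonym of 3 genes: MT1A, LOC613358 and LOC768319. LOC613358 and LOC768319 each had 1 probe set, and their values are given beside the members. They were added after the annotation and the values had been seen.

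The niacin group (n = 9) were multiparous Holstein cows whose silage-based total mixed ration held rumen-protected niacin. The dose was 79 mg per kg of body weight, of which the labels give 47 as reaching the duodenum and 31 as absorbable, and feeding began 3 weeks ahead of the expected calving. Control cows (n = 9), multiparous Holsteins too, were fed without the niacin product. Liver was biopsied 1 week after calving, and each cow gave 1 Bovine Gene 1.0 ST array (Affymetrix). The trial had 22 cows, and 2 per group of 11 were dropped by the submitters because their RNA integrity was lowest. Values are log2 expression after RMA, so that 1 unit is a doubling. Array medians lay between 5.57 and 5.72, correlations between arrays between 0.972 and 0.990. Precision is limited by how many arrays there were. Hepatocyte markers were present in every cow, with a mean log2 value over 8 genes of 12.25 to 12.52 in niacin cows and 12.39 to 12.58 in control cows. In niacin minus control, 8 of 8 hepatocyte markers were below 0 (2 at an unadjusted limma p under 0.05) and 9 of 10 macrophage markers above 0 (4 at an unadjusted p under 0.05), with 0 passing an adjusted p. The macrophage score ran from 8.00 to 8.73 in niacin cows and from 7.79 to 8.33 in control cows. The part of these marker differences in the members' values was not tested. In whole biopsies, fewer cells of a type and less RNA per cell cannot be told apart.

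Metallothioneins are small cysteine-rich proteins that bind zinc and copper. Their genes are switched on by the zinc-sensing transcription factor MTF1, and in liver also by cytokines and glucocorticoids. SLC39 proteins bring zinc and, for some members, manganese and iron into the cytosol. SLC30 proteins move zinc, or manganese in the case of SLC30A10, out of it. During an acute-phase response the liver of rodents is known to take up zinc from plasma, with SLC39A14 and metallothionein both induced.

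Metallothionein levels spread widely between cows within each diet, more so in control cows. MT1A ran from 10.68 to 12.93 log2 units in niacin cows and from 8.64 to 13.03 in control cows. MT2A ran from 9.59 to 11.96 in niacin cows and from 8.91 to 12.06 in control cows. With both diets pooled, MT1A covered a 21.0-fold range over 18 cows and MT2A an 8.88-fold range. Without control 1, the lowest cow for both, these were 8.11-fold and 5.78-fold. For both genes the 6 highest cows were the same, 4 fed niacin and 2 controls. By limma, 0 of 7 members passed an adjusted p of 0.05 between niacin and control, as did 0 of 18250 tested probe sets (0%). Over all 18 cows the importer SLC39A14 and the exporter SLC30A1 varied together, and both followed a score of acute-phase genes. After adjustment none of these relations passed within either diet alone. Nor did any pass within those 6 highest cows or within the rest, where fewer cows enter each test. MT1A followed the acute-phase score within niacin and within control cows (exact permutation test, adjusted p = 0.0299 and 0.0475). MT2A followed it within control cows (adjusted p = 0.0475) but did not pass within niacin cows (adjusted p = 0.141). Within a diet these relations pool high and lower cows. They did not pass within the 6 highest cows or within the rest. SLC30A1, SLC39A8, SLC39A4 and SLC30A10 had ranges of 1.65- to 1.96-fold.

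MT1A, a metallothionein, had log2 values of 12.69, 10.68, 12.50, 12.85, 12.93, 10.70, 11.06, 10.76 and 11.45 in niacin cows 3, 7, 8, 14, 15, 19, 33, 39 and 40. In control cows 1, 11, 12, 16, 20, 23, 36, 37 and 42 it had 8.64, 10.96, 12.88, 10.25, 10.68, 13.03, 10.01, 10.78 and 11.15. Niacin cows 3, 8, 14 and 15 and control cows 12 and 23 were high, at 12.50 or more, and the other 12 cows were at 11.45 or less, with control 1 the lowest of all. MT1A averaged 11.74 ± 0.99 in niacin cows and 10.93 ± 1.36 in control cows (SD, n = 9 each), and the groups overlapped. The log2 difference was 0.80 ± 0.49 (SE), or 1.75-fold, with a 95% interval of -0.21 to 1.82 and a limma adjusted p of 0.725. The exact two-sided permutation test over the 48620 splits of the cows gave p = 0.167. Without control 1 the difference was 0.52.

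MT2A, the second named metallothionein, had log2 values of 11.52, 10.25, 11.70, 11.73, 11.96, 9.59, 10.25, 10.33 and 10.91 in niacin cows 3, 7, 8, 14, 15, 19, 33, 39 and 40. Control cows 1, 11, 12, 16, 20, 23, 36, 37 and 42 had 8.91, 10.51, 11.98, 10.27, 10.46, 12.06, 9.53, 10.39 and 10.66. The 6 cows that were high for MT1A were also the 6 highest for MT2A, at 11.52 to 12.06, against 8.91 to 10.91 in the remaining 12. Group means were 10.92 ± 0.85 in niacin cows and 10.53 ± 1.01 in control cows, with a log2 difference of 0.39 ± 0.38 (SE; limma adjusted p = 0.856, exact permutation p = 0.394). The difference was 0.18 without control 1 and 0.26 without niacin 15, and the groups overlapped.

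**Figure D1:**
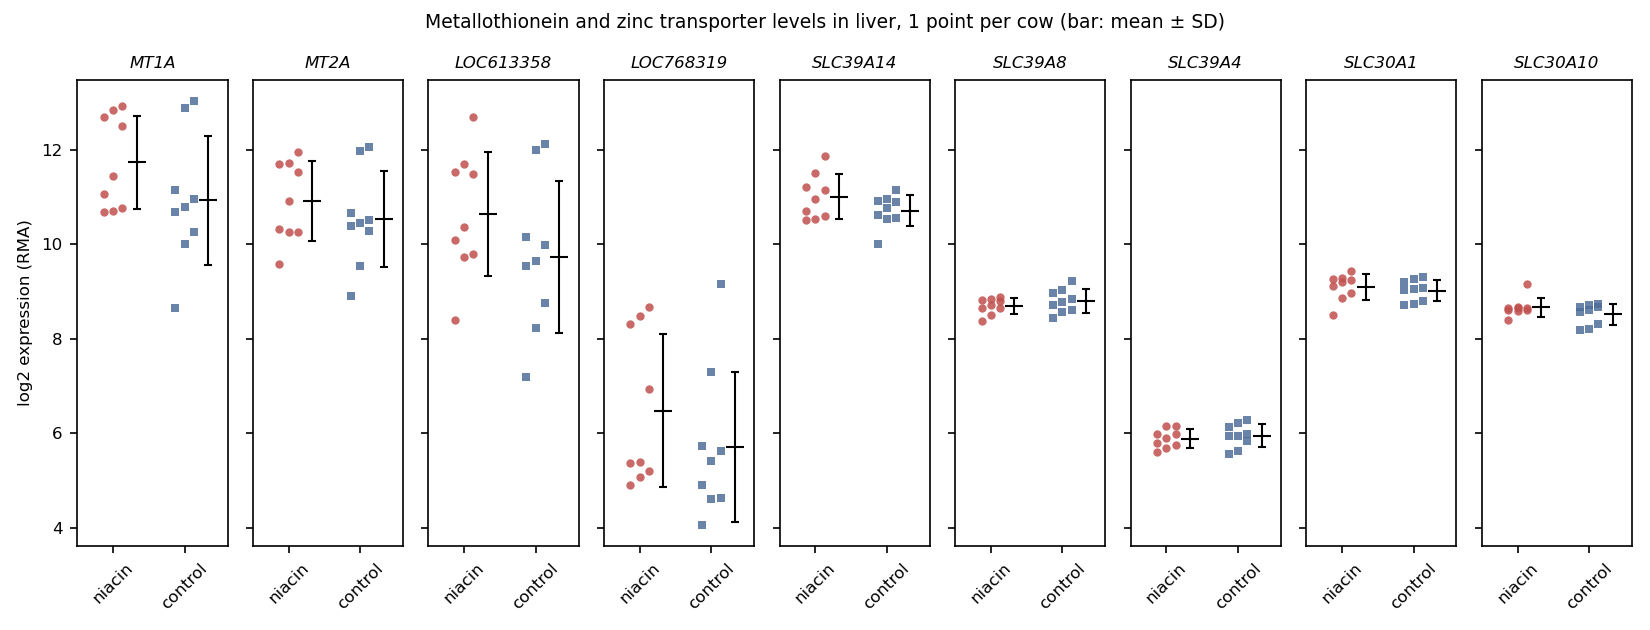
Log2 expression (y axis, RMA values) of the 7 measured members and of LOC613358 and LOC768319, 1 point per cow, with the niacin group left and the control group right in each panel; the bar beside each group is the mean ± SD (n = 9). Metallothionein probe sets spread over 3.15 to 5.52 log2 units, against 0.72 to 1.86 for the transporters, and in every panel the groups overlap.

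The 2 other probe sets that the gene table lists as MT1E behaved alike. LOC613358 ran from 8.40 to 12.70 in niacin cows (median 10.36) and from 7.18 to 12.12 in control cows (median 9.65), a 45.9-fold range over all cows and 22.3-fold without control 1. LOC768319 ran from 4.90 to 8.68 in niacin cows (median 5.38) and from 4.06 to 9.15 in control cows (median 5.41), a 34.1-fold range. It was 23.4-fold without control 1 and 24.6-fold without control 23. The low end was dim, with control 1 at 4.06, under the mean level of 4.35 below which probe sets were left out. For both, the 6 highest cows were those that were highest for MT1A, with a gap of 1.13 log2 units to the next cow for LOC613358 and of 1.21 for LOC768319. Their log2 differences between niacin and control were 0.91 ± 0.60 and 0.76 ± 0.66 (SE; limma adjusted p = 0.756 and 0.827). For LOC613358 the difference was 0.59 without control 1, and for LOC768319 it was 0.49 without niacin 8 and 1.19 without control 23. In the gene table these genes and MT1A and MT2A stand next to each other, in the order MT1A, LOC768319, LOC613358, MT2A. Probe sequences were not used here, and how far probe sets of these related genes also detect each other's transcripts was not tested.

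Set against all 18250 tested probe sets, the spread within groups was in the top part of the distribution for the metallothioneins. The within-group SD was 1.19 for MT1A, above 99.9% of probe sets and 18th in rank, and 0.93 for MT2A, above 99.7%, while the median of all tested probe sets was 0.20. Among the 165 probe sets whose mean lay within 0.5 log2 units of MT1A, its SD was above 98.2%. SLC39A14 had a within-group SD of 0.41, above 94.6% of all tested probe sets. SLC30A1 (0.25), SLC39A4 (0.22), SLC30A10 (0.21) and SLC39A8 (0.21) lay between the 56.9th and the 74.8th percentile. Against probe sets within 0.5 log2 units of each gene's own mean, the SD of MT2A was above 99.3% and that of SLC39A14 above 90.2%. By that measure SLC39A4 was above 68.5%, SLC30A1 above 65.0%, SLC30A10 above 46.7% and SLC39A8 above 45.4%.

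Among the importers, SLC39A14, which brings zinc, manganese and iron into hepatocytes, showed the widest range. It had 11.14, 10.96, 11.22, 11.87, 11.51, 10.51, 10.71, 10.53 and 10.59 in niacin cows 3, 7, 8, 14, 15, 19, 33, 39 and 40. In control cows 1, 11, 12, 16, 20, 23, 36, 37 and 42 it had 10.61, 10.90, 10.95, 10.77, 10.92, 11.14, 10.01, 10.54 and 10.56. Niacin cows 14 and 15 were highest and control 36 lowest, and 5 of the 6 cows with high MT1A were among the 6 highest for SLC39A14. The means were 11.00 ± 0.47 in niacin cows and 10.71 ± 0.33 in control cows, a log2 difference of 0.29 ± 0.17 (SE; interval -0.07 to 0.65, limma adjusted p = 0.718, exact permutation p = 0.152). Without niacin 14 the difference was 0.19.

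SLC39A8, an importer of zinc and manganese, had a range of only 1.79-fold. Its values ran from 8.38 to 8.88 in niacin cows (median 8.71) and from 8.43 to 9.22 in control cows (median 8.78). None of the 6 cows with high MT1A was among the 6 highest for SLC39A8, and niacin 15, with 12.93 for MT1A, was the lowest of all. The log2 difference was -0.10 ± 0.10 (SE; limma adjusted p = 0.843), -0.05 without control 11 and -0.07 without niacin 15. A second, dimmer probe set of this gene gave -0.01 ± 0.09 (SE; limma adjusted p = 0.983), and the mean of both gave -0.06 (exact permutation p = 0.473).

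SLC39A4, known for zinc uptake from the gut, ran from 5.59 to 6.15 in niacin cows (median 5.89) and from 5.56 to 6.28 in control cows (median 5.94). Its log2 difference was -0.06 ± 0.10 (SE; limma adjusted p = 0.925), and leaving out 1 cow gave -0.11 (without control 23) to -0.02 (without control 1). It moved by over 1.5 times also without control 16, 20 or 37 and without niacin 8, 19, 39 or 40.

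On the export side, SLC30A1, the zinc exporter of the plasma membrane and an MTF1 target, ran from 8.51 to 9.44 in niacin cows (median 9.20) and from 8.72 to 9.30 in control cows (median 9.05). Its log2 difference was 0.08 ± 0.11 (SE; limma adjusted p = 0.915), with 0.15 without niacin 39, 0.03 without niacin 8, 0.05 without control 1, 0.04 without control 36 and 0.04 without control 37. SLC30A10, which exports manganese, ran from 8.40 to 9.15 in niacin cows (median 8.64) and from 8.18 to 8.74 in control cows (median 8.60). Niacin 15, at 9.15, stood above the next niacin cow at 8.68, while control 23, 36 and 12 were low at 8.18, 8.20 and 8.30. The log2 difference was 0.15 ± 0.10 (SE; limma adjusted p = 0.748, exact permutation p = 0.156). It was 0.09 without niacin 15 and 0.09 with array weights.

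At an unadjusted limma p under 0.05 there were 0 of 7 members, against 1413 of 18250 tested probe sets (7.74%; 3.34% higher and 4.41% lower in niacin cows). The exact permutation test also gave 0 of 7 at an unadjusted p under 0.05. All 7 intervals included 0, and in 0 of 7 members, as in 0% of tested probe sets, the groups did not overlap. Of the members, 5 were above 0 and 2 below, against 53.8% above 0, 45.8% below and 0.416% at 0 among all tested probe sets. The median log2 difference was 0.15 for the members and 0.01 for all tested probe sets. The interval of MT1A reached a log2 difference of 1.82, and that of MT2A 1.18.

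**Figure D2:**
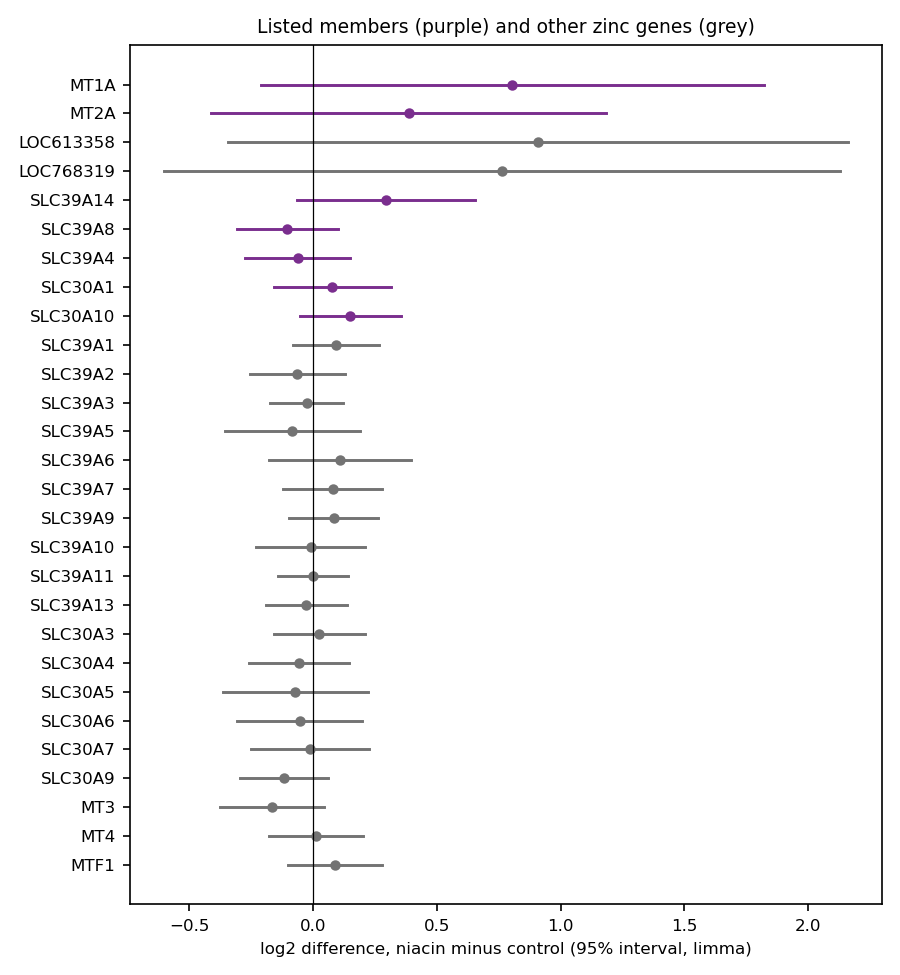
Log2 difference (x axis, niacin minus control) with the 95% interval from limma for the measured members (purple), and for LOC613358, LOC768319 and the other zinc transporter and metallothionein genes that passed the filter (grey). Every interval includes 0, and the metallothionein probe sets on top have the widest, -0.21 to 1.82 for MT1A.

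The other genes of zinc handling had log2 differences between -0.17 and 0.11. Of 10 other SLC39 genes that passed the filter, 5 were above and 5 below 0, and 0 had an unadjusted p under 0.05. SLC39A1, a plasma membrane importer, was at 7.76 ± 0.20 in niacin cows and 7.67 ± 0.13 in control cows, a log2 difference of 0.09. SLC39A9 differed by 0.08. Of 6 other SLC30 genes, 1 was above and 5 below 0, with SLC30A9 at -0.12 and SLC30A4 at -0.06. MTF1, the zinc sensor, was at 6.21 ± 0.19 in niacin cows and 6.12 ± 0.20 in control cows. MT3, a metallothionein known from brain, was at 4.47 ± 0.28 in niacin cows and 4.64 ± 0.13 in control cows, near the level of 4.35 under which probe sets were left out. For these genes the limma adjusted p lay between 0.725 and 0.998.

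Among 11 copper-handling genes, 6 were above 0, 4 below and 1 at 0 (ATP7B, a copper-transporting ATPase, with equal means), and 0 passed an adjusted p under 0.05. COMMD1, which takes part in copper export, was at 7.22 ± 0.16 in niacin cows and 7.43 ± 0.15 in control cows. Its log2 difference of -0.21 ± 0.08 (SE) had an unadjusted limma p of 0.0139 and an adjusted p of 0.532. SCO2, a copper chaperone of cytochrome c oxidase, differed by -0.09.

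Co-variation between cows was tested for the 21 pairs of members. Over 18 cows, 4 pairs passed a Benjamini-Hochberg adjusted p of 0.05 (permutation test with 100000 resamples, two-sided), namely MT1A with MT2A, SLC39A14 with each of these, and SLC39A14 with SLC30A1. MT1A and MT2A values fall into sets of 6 and 12 cows, at the widest gap that leaves at least 6 cows on each side (1.05 log2 units for MT1A and 0.61 for MT2A). A wider gap of 1.37 parts control 1 from the rest for MT1A, and one of 0.66 parts the 3 lowest cows for MT2A. For this reason, for pairs with a metallothionein no pooled correlation is given here. For MT1A with MT2A one is given further below, beside the ranking of the genes most like MT1A. Within the 12 lower cows, MT1A and MT2A still varied together, with Pearson's r = 0.88 (permutation p = 5.4e-04, adjusted p = 0.0113) and Spearman's rho = 0.76 (permutation p = 0.00561). By rank the pair did not pass after adjustment (adjusted p = 0.112). Within the 6 higher cows r was 0.76 (exact permutation p = 0.0722) and rho 0.89 (exact permutation p = 0.0333), and after adjustment over 21 pairs the p for r was 0.898. In the 12 lower cows LOC613358 followed MT1A with r = 0.89 and LOC768319 with r = 0.82 (permutation p = 1.9e-04 and 0.00122, adjusted over 28 relations 0.00532 and 0.0171), with rho = 0.83 and 0.74 (permutation p = 0.0013 and 0.00801, adjusted p = 0.0364 and 0.0613). In the 6 higher cows r with MT1A was 0.57 for LOC613358 and 0.22 for LOC768319 (exact permutation p = 0.239 and 0.694). MT2A in the 12 lower cows had r = 0.78 with LOC613358 and 0.76 with LOC768319 (permutation test, adjusted p = 0.0248 for each). By rank neither passed (adjusted p = 0.0960 and 0.0613). SLC39A4 ran against LOC768319 in the 6 higher cows, with r = -0.93 (exact permutation p = 0.00417, adjusted p = 0.0248) and rho = -1.0 (adjusted p = 0.0389). In those 6 cows SLC39A4 spanned only 5.56 to 5.99. For the same pair in the 12 lower cows r was -0.41 (permutation p = 0.186). Both the set of 6 cows and LOC768319 were chosen after values had been seen, and the adjustment does not cover that choice. No other of the 28 relations passed by r.

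For SLC39A14 with the metallothioneins, no relation passed within either set. With MT1A its r was 0.21 in the 12 lower cows (permutation p = 0.457) and 0.10 in the 6 higher cows (exact permutation p = 0.85), and with MT2A it was 0.39 (permutation p = 0.208) and -0.17 (exact permutation p = 0.706). Spearman's rho was -0.04 and -0.14 with MT1A (permutation p = 0.907 and exact permutation p = 0.778), and 0.22 and -0.29 with MT2A (0.495 and 0.6). These pairs passed only with both sets pooled. The sets were cut on MT1A itself, which narrows its range within each, and fewer cows enter each test. A low r within a set therefore cannot decide whether these genes vary together. SLC39A8 ran the other way than MT1A over 18 cows without passing (adjusted p = 0.0639). Within the 12 lower cows r was -0.0049 (permutation p = 0.986), and within the 6 higher cows -0.53 (exact permutation p = 0.286).

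**Figure D3:**
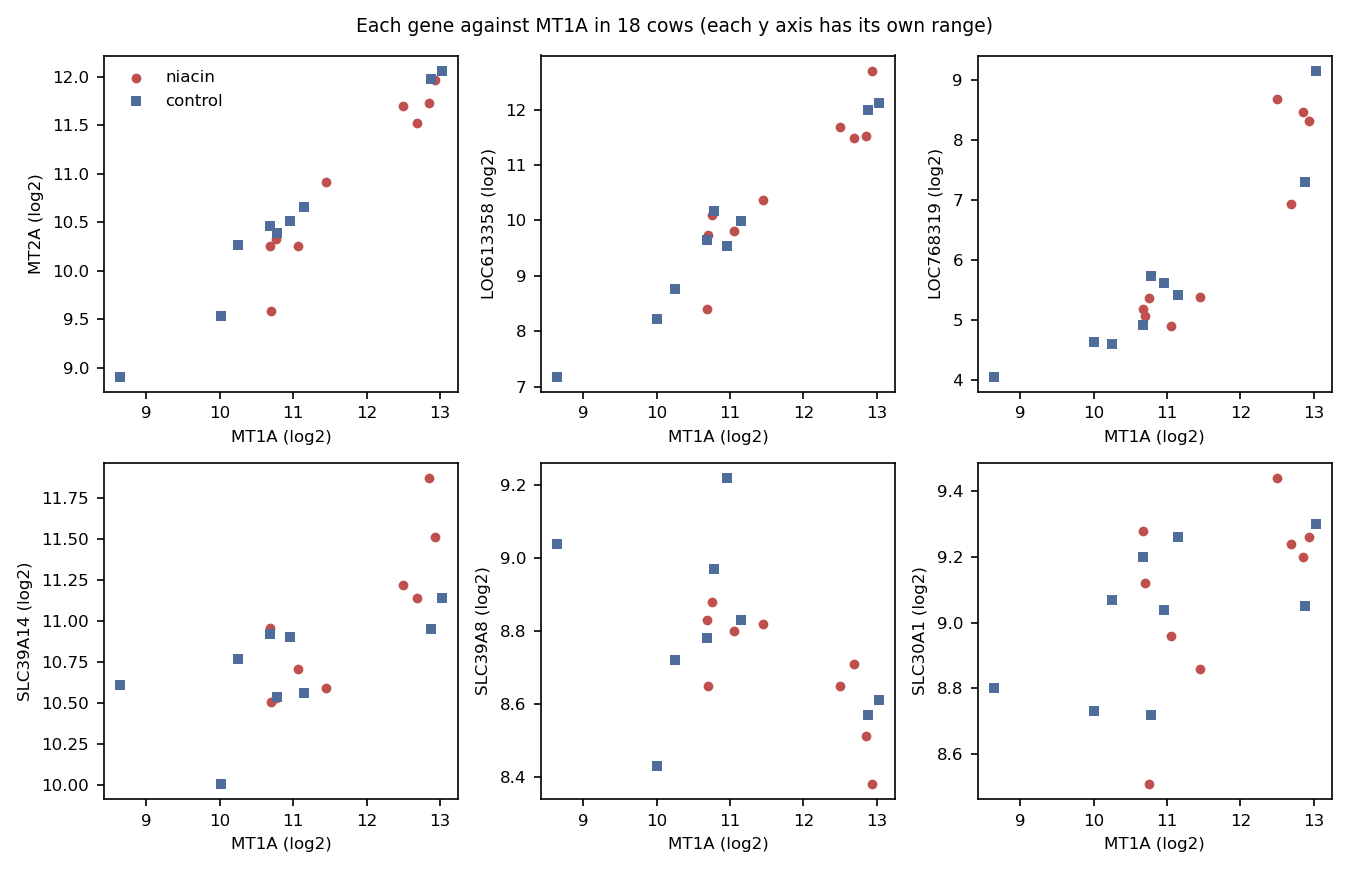
Log2 level of MT2A, LOC613358, LOC768319, SLC39A14, SLC39A8 and SLC30A1 (y axes, each with its own range) against that of MT1A (x axis) in 18 cows, niacin as circles and control as squares. In each panel 6 cows, 4 fed niacin and 2 controls, lie at 12.50 or more of MT1A, apart from 12 cows at 11.45 or less. These 6 are on top for MT2A, LOC613358 and LOC768319. For SLC39A8 they are at 8.38 to 8.71 and overlap the other 12, at 8.43 to 9.22.

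SLC39A14 and SLC30A1, an importer and an exporter of zinc, varied together over 18 cows with r = 0.66 (permutation p = 0.0034, adjusted p = 0.0178) and rho = 0.72 (permutation p = 0.00127). Without control 36 and niacin 14, the cows farthest from the median of SLC39A14, r was 0.69 (permutation p = 0.00315). Within the groups r was 0.62 in niacin cows (exact permutation p = 0.0697) and 0.70 in control cows (exact permutation p = 0.0305), neither past the threshold after adjustment over 21 pairs (adjusted p = 0.209 and 0.237). In the 12 cows with lower MT1A r was 0.57 (permutation p = 0.0475, adjusted p = 0.280), and in the 6 with higher MT1A it was 0.10 (exact permutation p = 0.856).

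Each member was then set against 3 scores, the mean log2 values of 15 acute-phase genes, of 10 glucocorticoid-responsive genes and of 29 leukocyte markers, which gives 21 relations. Of these, 4 passed over 18 cows, all with the acute-phase score: MT1A, MT2A, SLC39A14 and SLC30A1. The score averaged 10.58 ± 0.39 in niacin cows and 10.25 ± 0.46 in control cows (SD, n = 9 each; exact permutation p = 0.111). Of its 15 genes 13 were above 0 in niacin minus control, 3 had an unadjusted limma p under 0.05 and 0 an adjusted one, and the part of this in the differences of the members was not tested. SLC39A14 followed it with r = 0.80 (permutation p = 4e-05, adjusted p = 2.8e-04) and rho = 0.77 (permutation p = 3.2e-04). Without control 36 and niacin 14, r was 0.66 (permutation p = 0.00599). It was 0.83 within niacin cows (exact permutation p = 0.00495, adjusted p = 0.0520) and 0.77 within control cows (exact permutation p = 0.0136, adjusted p = 0.0952), and 0.48 and 0.58 within the 12 and the 6 cows (permutation p = 0.11 and exact permutation p = 0.242). For SLC30A1, r was 0.66 (permutation p = 0.00278, adjusted p = 0.0146) and rho 0.67 (permutation p = 0.00319), with r = 0.56 without control 37 and niacin 39 (permutation p = 0.0256). Within niacin cows its r was 0.61 (exact permutation p = 0.0873, adjusted p = 0.305), and within control cows 0.74 (exact permutation p = 0.0237, adjusted p = 0.124). In the 12 cows with lower MT1A it was 0.56 (permutation p = 0.0569), and in the other 6 it was -0.29 (exact permutation p = 0.568).

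The 6 cows with high MT1A were also the 6 highest for the acute-phase score, at 10.73 to 11.26, against 9.68 to 10.64 in the other 12. They were the 6 highest for HP, haptoglobin, at 12.57 to 12.78 against 8.37 to 12.36, and for LBP, which binds bacterial lipopolysaccharide, at 10.98 to 12.05 against 8.56 to 10.69. Among the 6 highest for SAA1, SAA3, SAA4, ITIH4, ORM1, FGA and FGG were 5 of these 6 cows. For SAA2, CRP, FGB and SOCS3 it was 4, and for CD14 it was 2. For HAMP, the iron hormone hepcidin, 1 of the 6 was among the 6 highest. These comparisons of cows chosen by MT1A are descriptions with no test. Inside the sets, the relation of MT1A to the score was r = 0.57 and rho = 0.59 in the 12 lower cows (permutation p = 0.0419 and 0.0477, adjusted p = 0.262 for r). In the 6 higher cows it was r = 0.51 and rho = 0.54 (exact permutation p = 0.294 and 0.297). MT2A had r = 0.48 (permutation p = 0.111) and 0.25 (exact permutation p = 0.624).

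**Figure D4:**
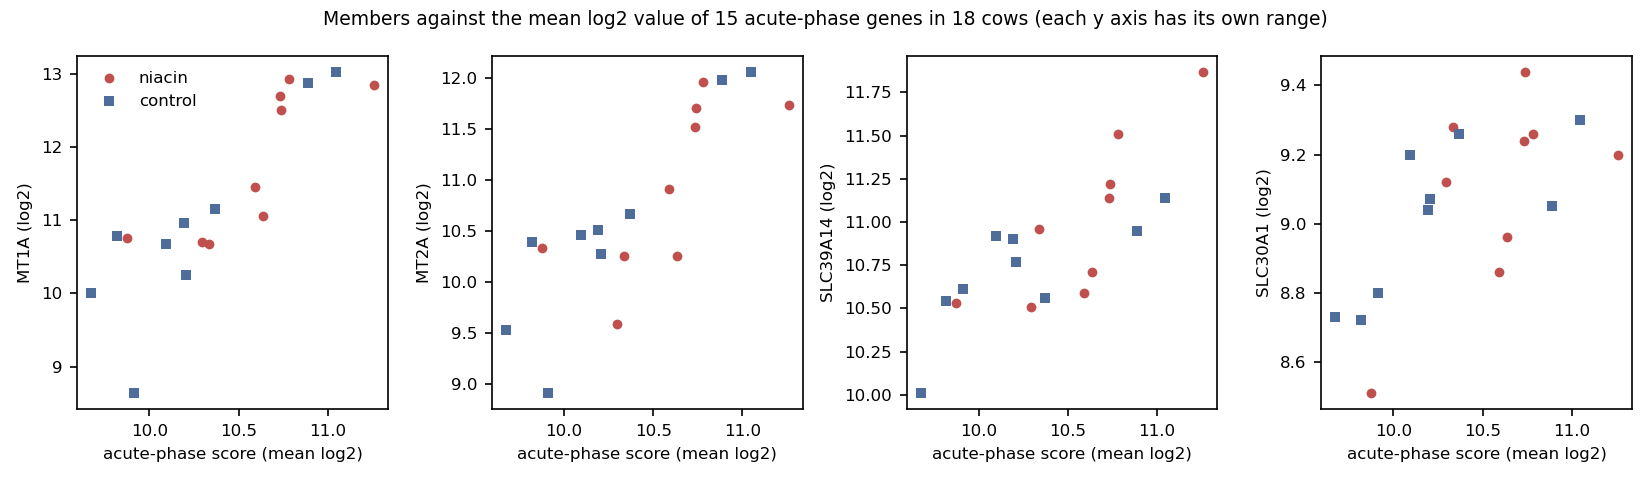
Log2 level of MT1A, MT2A, SLC39A14 and SLC30A1 (y axes, each with its own range) against the mean log2 value of 15 acute-phase genes (x axis) in 18 cows, niacin as circles and control as squares. The 6 cows with MT1A at 12.50 or more hold the 6 highest scores, 10.73 to 11.26, and SLC39A14 rises with the score over all cows (r = 0.80).

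No relation of a member with either of the other scores passed. With the glucocorticoid-responsive score the adjusted p of the 7 relations lay between 0.502 and 0.926 (permutation test). With the leukocyte score the nearest over 18 cows was SLC30A1, with r = 0.53 and rho = 0.41 (permutation p = 0.0244 and 0.0931, adjusted p = 0.103 for r). MT1A had r = 0.70 and rho = 0.27 with this score in the 12 lower cows (permutation p = 0.017 and 0.385), and r = -0.86 and rho = -0.83 in the 6 higher cows (exact permutation p = 0.0306 and 0.0583). After adjustment over 21 relations the p for r was 0.262 and 0.642. This score averaged 6.62 ± 0.17 in niacin cows and 6.46 ± 0.13 in control cows (SD, n = 9 each; exact permutation p = 0.0355, not adjusted over the 3 scores). Its part in the values of the members was not tested.

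The genes most like each member were ranked by r over 18 cows among 14480 genes, after subtracting the mean of each group, with the members themselves left out of the ranking. They are the top of that ranking and are given with no p, and for MT1A this r pools the sets of 6 and 12 cows. By the same measure MT2A stood at 0.98 with MT1A, above every gene ranked. The closest other genes to MT1A were LOC613358 (r = 0.96 over all cows, 0.89 within the 12 lower and 0.57 within the 6 higher cows) and LOC768319 (0.91, 0.82 and 0.22). SERPINA3-8, a serine protease inhibitor gene (0.88, 0.51 and 0.22), FCN1, a ficolin of innate immunity (0.84, 0.82 and 0.00074), SAA1, serum amyloid A (0.84, 0.56 and 0.57), and HP (0.81, 0.69 and -0.30) followed. Within the 6 higher cows r was near 0 for FCN1 and below 0 for HP, but there MT1A spanned only 12.50 to 13.03 and HP 12.57 to 12.78. With 6 cows and so narrow a range, r cannot decide whether these genes vary together. For SLC39A14 the closest were CCNJ, a cyclin gene (r = 0.89), and BRI3 (0.88). SLC30A1 was closest to ALDOA, the glycolytic enzyme aldolase (0.89), and to NFIL3, a basic leucine zipper transcription factor (0.86).

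SLC30A10 was closest to NADK, which makes NADP from NAD (r = 0.88), and to TMEM53 (0.85). Niacin 15 was the highest of the niacin cows for all 3 genes, and within control cows r was 0.95 for NADK and 0.89 for TMEM53. SLC39A8 was closest to MOGAT1, an acyltransferase of triacylglycerol synthesis (0.81), and to SLC16A13, a monocarboxylate transporter family member (0.81). SLC39A4 was closest to MAD2L2 (0.76) and TRARG1 (0.75). Within niacin cows these r were 0.37 and 0.64, and within control cows 0.93 and 0.90. None of these genes passed the niacin test, with limma adjusted p of 0.453 (ALDOA) to 0.963 (TMEM53).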

How the data were processed

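The authors deposited log2 expression values per probe set. Per the submitters' processing notes, the tools were RMA and Affymetrix Expression Console, whose versions are not given in the sources used here. That the scale is log2 was read from the range of the values. RMA's quantile step makes array distributions alike, so a shift shared by most genes would not show. Background intensities were not used here. Arrays were grouped by title, and p-values rest on 18 cows. Platform annotation gave 18457 probe sets 1 symbol, 688 several and 5188 none.

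The lowest 0.25 of probe sets by mean (6083, under 4.35) were left out, and 18250 were fitted with limma 3.58.1 in R 4.3.3 (lmFit, eBayes, niacin minus control, no covariate), Benjamini-Hochberg adjusted at 0.05. Correlations and exact tests used Python 3.11.15, and scripts were tested on simulated data. The members, gene lists and tests were chosen with earlier results of these data known. Named genes were all members, the top 6 (MT1A, the brightest metallothionein) or 2 (each transporter) genes by correlation, and in each list of other zinc and copper genes the 2 with the smallest p. HP, LBP, HAMP, the other genes of the acute-phase score and ATP7B were named after their values were seen. Alternatives were other filters, variance models, normalizations, array weights, rank correlation and leaving out each cow. The split of cows at the widest MT1A gap with at least 6 cows on both sides was chosen after seeing the data.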

Additional observations from a re-analysis of the deposited data

Results flagged for a closer look

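Of 52 groups of 9 values (the measured members, LOC613358, LOC768319, the 3 scores and the genes most like a member, in each diet), 5 held a cow whose gap to the nearest other cow of its group took up more of the group's range than Dixon's 95% critical value for 9 samples. Chance gives about 1 in 20, or 2.6, and the groups share cows and related genes. Niacin 15 stood high in 3 of them: SLC30A10 at 9.15 (next cow 8.68), NADK at 10.03 (next 9.35) and TMEM53 at 7.22 (next 6.43). Niacin 39 stood low in the other 2: HP at 9.12 (next 11.68) and NFIL3 at 5.56 (next 6.31).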

How the results depend on the processing

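No member passed under any of the settings run, and no member changed sign. With other filters, variance models, weights and normalizations the log2 differences were 0.77 to 0.80 for MT1A, 0.34 to 0.39 for MT2A, 0.27 to 0.29 for SLC39A14, -0.11 to -0.10 for SLC39A8, -0.07 to -0.06 for SLC39A4, 0.07 to 0.08 for SLC30A1 and 0.09 to 0.15 for SLC30A10. The mean of both SLC39A8 probe sets gave -0.06. Leaving out 1 cow gave 0.52 to 1.07 for MT1A, 0.18 to 0.58 for MT2A, 0.19 to 0.36 for SLC39A14, -0.15 to -0.05 for SLC39A8, -0.11 to -0.02 for SLC39A4, 0.03 to 0.15 for SLC30A1 and 0.09 to 0.18 for SLC30A10. Probe sets called over the whole table were 0 under every setting except without niacin 39, where 1 was called, so the range was 0 to 1.

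The 4 pairs of members called over 18 cows became 4 to 7 on leaving out 1 cow (7 without control 36). They became 1 within niacin cows, 1 within control cows, 1 within the 12 cows with lower MT1A and 0 within the 6 with higher MT1A, where fewer cows enter each test. Where 1 pair was left, it was MT1A with MT2A. MT2A with SLC39A14 turned to r = -0.17 within those 6. The 4 relations with the scores were 4 to 5 on leaving out 1 cow, 1 within niacin cows, 2 within control cows, and 0 within the 12 and 0 within the 6 cows. Within niacin cows the 1 was MT1A with the acute-phase score, and within control cows the 2 were MT1A and MT2A with it. SLC30A1 with the acute-phase score turned to r = -0.29 within the 6. With 4 pairs and 4 relations, rank correlation and subtracted group means over 18 cows gave the same counts, while rank correlation within the 12 cows gave 0 pairs. No paired analysis was possible because the cow numbers of the groups do not overlap. No batch was given by the labels, and background correction could not be varied from RMA values.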
